A study of Mus musculus with 6 samples.

Results

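Acyl-CoA thioesterases, encoded by the Acot genes, split acyl-CoAs into a free fatty acid and coenzyme A, and vanin 1 (Vnn1) is the pantetheinase that recycles the vitamin part of coenzyme A. The set comprised 9 Acot genes and Vnn1, which is 10 of the 12393 genes with a value, and it was read from every probe set whose only gene symbol was a member. There were 12 such probe sets, and the brightest by mean over all arrays represented a gene. The genes were picked with results of this genotype comparison known, so their differences are given as a description with no test of their own.

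Expression was measured on 6 Affymetrix arrays, 3 of hepatocytes from Alb/AEG-1 mice and 3 of wild-type hepatocytes. The transgenic line overexpresses astrocyte elevated gene 1 (AEG-1), the product of Mtdh, in its hepatocytes. Both genotypes were of a mixed B6/CBA strain, and their primary hepatocytes were untreated and harvested 24 h after plating on collagen. The sources used here give no age, no number of mice behind a sample and no transgene sequence, and samples labelled as biological replicates are not tied to named animals or cultures. The p-values below therefore set differences against the spread between these samples, moderated by that of all genes. Whether this equals the spread between mice is not known. The number of arrays limits the precision.

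Coenzyme A carries fatty acids in activated form, and thioesterases set that activation back. Type I thioesterases share an alpha/beta hydrolase fold with a catalytic serine, whereas type II enzymes have the unrelated hotdog fold. The same chemistry is placed in several compartments: ACOT1 works in the cytosol, ACOT2 in the mitochondrial matrix and ACOT3 and ACOT4 in peroxisomes. Several type I genes and Vnn1 are known targets of PPARA, the nuclear receptor of the fasted liver, which binds DNA with RXR at a direct repeat of a half-site spaced by one base.

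The array files hold no probe sequences, so the start regions of the 4 type I genes are shown because all 4 had lower values in transgenic cells and lie side by side on chromosome 12. Windows of 300 bases, from 250 before to 50 after the annotated start, came from RefSeq (GRCm38.p6) and were found for 8 of the 10 members. Those shown are Acot1 at chr12:84009252-84009551, Acot2 at chr12:83987611-83987910, Acot3 at chr12:84051894-84052193 (the first of its 2 windows) and Acot4 at chr12:84038129-84038428, all on the plus strand. Capitals mark the half-site AGGTCA in either orientation.
Acot1: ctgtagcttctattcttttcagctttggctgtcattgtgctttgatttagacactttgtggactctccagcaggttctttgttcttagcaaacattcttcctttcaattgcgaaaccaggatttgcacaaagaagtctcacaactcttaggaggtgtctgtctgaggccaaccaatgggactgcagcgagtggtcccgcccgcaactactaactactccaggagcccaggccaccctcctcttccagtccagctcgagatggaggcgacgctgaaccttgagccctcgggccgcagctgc
Acot2: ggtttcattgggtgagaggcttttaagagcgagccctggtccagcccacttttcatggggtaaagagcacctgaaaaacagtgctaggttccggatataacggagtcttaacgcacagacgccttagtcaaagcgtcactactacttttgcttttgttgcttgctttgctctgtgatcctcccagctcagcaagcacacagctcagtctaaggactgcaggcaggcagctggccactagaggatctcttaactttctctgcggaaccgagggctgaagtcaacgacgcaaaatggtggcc
Acot3: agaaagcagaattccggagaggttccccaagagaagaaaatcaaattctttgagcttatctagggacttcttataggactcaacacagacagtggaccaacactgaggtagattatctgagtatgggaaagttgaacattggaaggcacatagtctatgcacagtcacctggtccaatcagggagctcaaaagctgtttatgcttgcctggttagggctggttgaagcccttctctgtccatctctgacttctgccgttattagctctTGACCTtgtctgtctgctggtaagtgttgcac
Acot4: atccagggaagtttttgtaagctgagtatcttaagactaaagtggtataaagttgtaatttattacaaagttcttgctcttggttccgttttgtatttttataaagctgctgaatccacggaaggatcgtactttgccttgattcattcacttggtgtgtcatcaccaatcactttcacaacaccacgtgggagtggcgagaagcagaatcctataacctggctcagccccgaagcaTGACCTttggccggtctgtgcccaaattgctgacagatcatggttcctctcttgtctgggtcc

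A relaxed PPAR element, AGGNCANAGGNCA on either strand, was found in 0 of the 8 members' windows, and 0.381% of all 32851 windows held one. The half-site AGGTCA, on either strand, was present in 3 of the 8 members and in 18.1% of all 27025 genes with a window. In Acot4 it read TGACCT, the reverse strand, beginning 13 bases before the start. In Acot3 it read TGACCT too, beginning 18 bases after the start, and in the type II gene Acot12 it began 110 bases before the start. The motifs can overlap, since a repeat may hold the half-site, but no full match to the repeat was found in these windows. The search let the N positions vary and allowed no other mismatch. On the reverse strand, the Acot4 half-site lies in a stretch that differs from the repeat by 1 letter. Near matches were not searched for in the other windows, so how common they are is not known. In pairwise global alignments the 6 pairs of type I windows were 43.3% to 47.5% identical, and the other 22 pairs of member windows were 42.6% to 49.7% identical. The first range lay within the second. Elements outside these windows were not examined.

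Overexpression was checked first. Mtdh at its brightest probe set, 1455129_at, read 10.72, 10.40 and 10.81 on the transgenic arrays, against 8.75, 8.78 and 8.64 on the wild-type arrays (log2 expression values). The other 5 Mtdh probe sets gave differences from -0.27 to 0.24. Of 8 measured hepatocyte markers 0 lay under the median of all array values. Of the same 8 markers 0 changed (limma with Benjamini-Hochberg adjustment, threshold 0.05), or 0 at an unadjusted p under 0.05. Signal above that median does not single out hepatocytes, since only 3 of 13 macrophage and 3 of 9 sinusoidal endothelium markers lay under it. Array medians lay between 5.61 and 5.64. The control probe sets for Gapdh gave a 3' minus 5' signal of 0.096 to 0.11 in transgenic and 0.014 to 0.13 in wild-type arrays. Those for Actb gave 0.84 to 0.92 in transgenic and 0.87 to 0.93 in wild-type arrays.

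Among the 10 members, 5 were lower and 0 were higher in transgenic hepatocytes at the threshold of the fit across all genes, where 9.05% of all genes were lower and 6.83% were higher. At an unadjusted p under 0.05 limma gave 6 lower and 0 higher. All 3 transgenic arrays lay below all 3 wild-type arrays for 7 members, as they did for 17.6% of all genes. The members' median difference, transgenic minus wild type, was -0.23, and that of all genes was 0.010. These counts describe genes picked with the contrast in view. In a bulk culture, less RNA per cell and fewer cells of a type cannot be told apart.

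**Figure D1:**
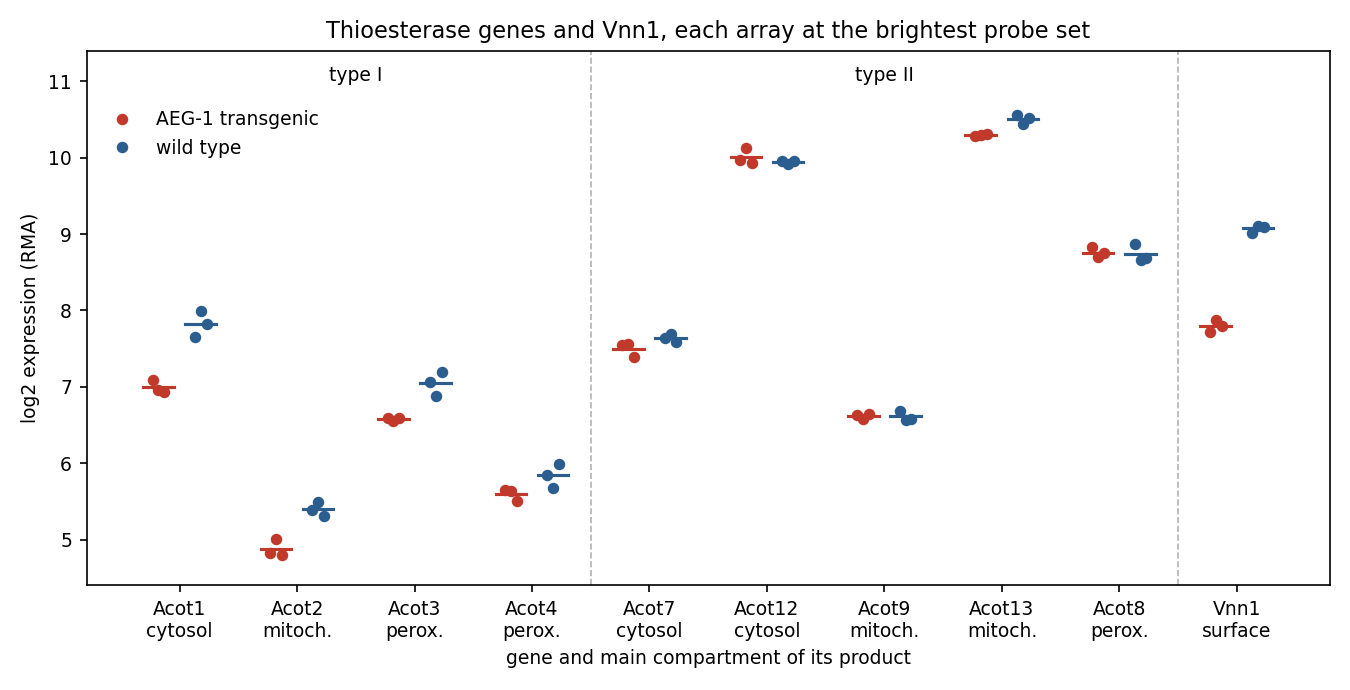
Log2 expression of each member on each array (vertical axis), transgenic left and wild type right, with points for arrays and lines for group means. In Vnn1, Acot1, Acot2 and Acot13 the gap between genotypes is wider than the range of arrays within either genotype. Acot8, Acot9 and Acot12 overlap.

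Vnn1 showed the widest separation. Its product is a membrane-anchored ectoenzyme that cleaves pantetheine into pantothenate, the vitamin precursor of coenzyme A, and cysteamine. It read 7.71, 7.87 and 7.80 on the transgenic arrays, against 9.02, 9.11 and 9.09 on the wild-type arrays. The highest transgenic array lay 1.15 log2 units under the lowest wild-type array. The means were 7.79 ± 0.077 and 9.07 ± 0.049 (SD, n = 3 each), a difference of -1.28 (SE 0.062) or a 2.43-fold lower level. Ordered from the lowest, this difference ranked 28 among 12393 genes.

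Acot1, the cytosolic type I enzyme that acts on long-chain acyl-CoAs, was the lowest thioesterase gene by difference. It read 7.09, 6.96 and 6.94 on transgenic arrays, against 7.65, 7.99 and 7.82 on wild-type arrays. Groups did not overlap, and the nearest arrays of the genotypes were 0.56 apart. The difference was -0.83 (SE 0.092), a 1.77-fold lower level, at rank 73 from the lowest of all genes.

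Acot2 encodes the mitochondrial matrix counterpart of ACOT1. Its own probe set, 1422996_at, gave 4.83, 5.002 and 4.80 in transgenic cells, against 5.39, 5.49 and 5.31 in wild-type cells. Both groups lay under the median of all array values, 5.63, where signal is nearer to background, and they did not overlap. The difference was -0.52 (SE 0.076). A probe set shared by Acot1 and Acot2, 1422997_s_at, stayed out of the gene comparison because it carries both symbols. It gave 7.78, 7.78 and 7.67 on transgenic arrays, against 8.52, 8.65 and 8.42 on wild-type arrays, a difference of -0.78 (SE 0.075). The shared probe set thus ran the same way as both single-gene probe sets, and its difference lay between theirs.

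Acot3 and Acot4 encode peroxisomal type I enzymes, of which ACOT4 is known for splitting succinyl-CoA and other dicarboxylyl-CoAs. Acot3 read 6.59, 6.55 and 6.60 in transgenic cells, against 7.06, 6.89 and 7.19 in wild-type cells, a difference of -0.47 (SE 0.081). Its only probe set is of a kind named as matching several transcripts (_s_at), and without moderation of the variances it did not pass. Acot4 read 5.65, 5.63 and 5.51 in transgenic cells, against 5.85, 5.68 and 5.99 in wild-type cells. These groups did not overlap but came within 0.030 of each other, and the difference of -0.24 (SE 0.086) did not pass. A dimmer Acot4 probe set, 1422077_at, gave -0.28 (SE 0.11), with the genotypes overlapping. The mean of both Acot4 probe sets gave -0.26 and passed. Acot4 also passed without wild-type replicate 2, at -0.32.

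The type II genes differed less. Acot13 encodes a mitochondria-associated thioesterase that binds the phosphatidylcholine transfer protein. It read 10.28, 10.30 and 10.31 in transgenic cells, against 10.55, 10.44 and 10.52 in wild-type cells. The groups were 0.13 apart at their nearest arrays, and the difference was -0.21 (SE 0.055), a 1.16-fold lower level. Acot13 passed the threshold under 9 of 19 alternative settings. It was lost when any array other than wild-type replicate 2 was left out, with differences from -0.22 to -0.19.

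Acot7, the cytosolic thioesterase best known from brain, read 7.54, 7.56 and 7.39 in transgenic cells, against 7.64, 7.69 and 7.59 in wild-type cells. The groups did not overlap, by a margin of 0.031. The difference of -0.14 did not pass, and its 95% interval ran from -0.29 to 0.0093.

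Acot8, Acot9 and Acot12 overlapped between genotypes. Acot8, the broad-range peroxisomal type II enzyme, read 8.82, 8.70 and 8.75 in transgenic cells, against 8.87, 8.66 and 8.68 in wild-type cells. Its difference was 0.019, with a 95% interval from -0.15 to 0.19. Acot9, a mitochondrial type II gene, read 6.62, 6.57 and 6.65 in transgenic cells, against 6.69, 6.56 and 6.58 in wild-type cells. Its difference was 0.0030, with a 95% interval from -0.13 to 0.14. A probe set shared by Acot9 and Acot10 gave 0.18 (SE 0.089) and did not pass.

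Acot12 encodes a cytosolic acetyl-CoA hydrolase, which releases acetate. Its brighter probe set, 1449457_at, read 9.97, 10.13 and 9.93 in transgenic cells, against 9.96, 9.91 and 9.96 in wild-type cells. The difference was 0.065, with a 95% interval from -0.088 to 0.22. The dimmer probe set, 1419395_at, read 7.89, 7.74 and 7.84 in transgenic cells, against 7.91, 8.11 and 7.89 in wild-type cells, a difference of -0.15 (SE 0.078). Neither passed, and the probe sets ran in opposite directions, so Acot12 has no settled direction on these arrays.

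**Figure D2:**
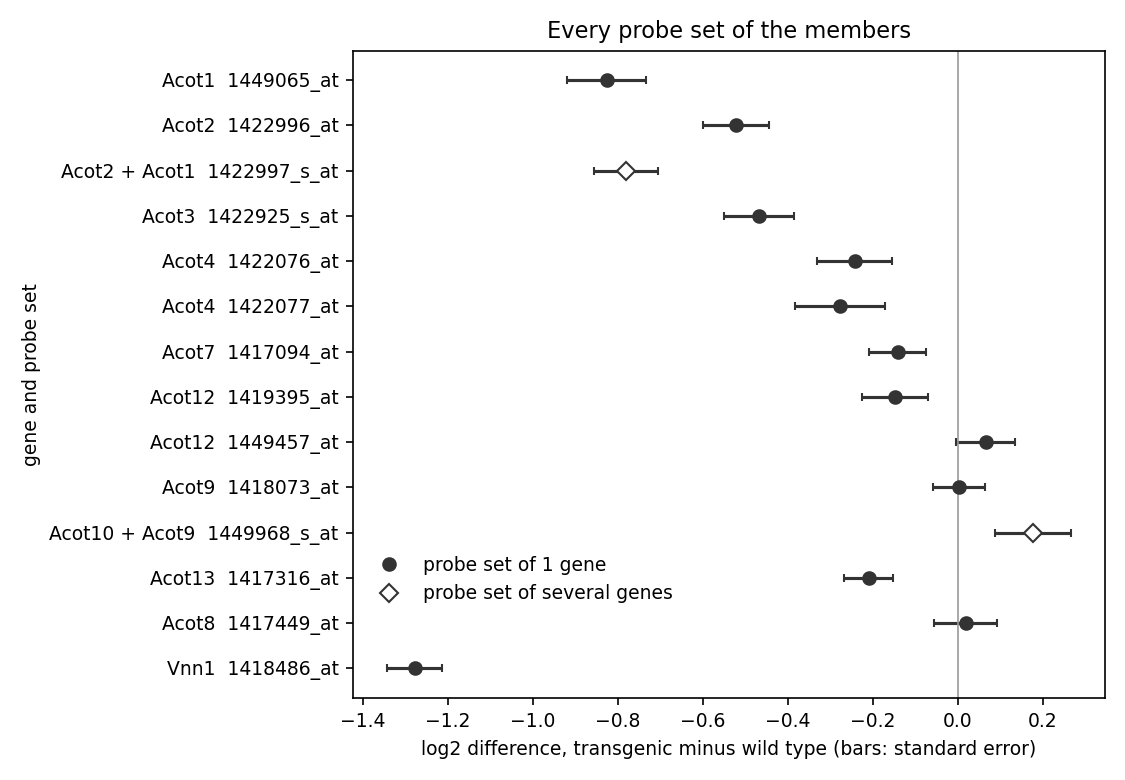
Log2 difference, transgenic minus wild type, with its standard error (horizontal axis) for all 14 probe sets that carry a member's symbol (vertical axis). Open diamonds are the 2 probe sets that carry several symbols, and all 5 single-gene type I probe sets lie below 0.

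Sorted by the compartment of the product, the differences did not fall into separate ranges. Of all genes 9.05% were called lower. The 3 cytosolic genes ran from -0.83 to 0.065 with a median of -0.14, and 1 of them was called lower. The 3 mitochondrial genes ran from -0.52 to 0.0030 with a median of -0.21, and 2 were called lower. The 3 peroxisomal genes ran from -0.47 to 0.019 with a median of -0.24, and 1 was called lower. Each compartment thus held a lower type I gene and a type II gene near 0.

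Sorted by protein family, the ranges of the members came within 0.033 of each other. The 4 type I genes ran from -0.83 to -0.24, with a median of -0.50 and 3 called lower, against 9.05% of all genes. At the brightest probe sets all 4 had every transgenic array below every wild-type array, as did 17.6% of all genes. The dimmer Acot4 probe set overlapped between genotypes. The 5 type II genes ran from -0.21 to 0.065, with a median of 0.0030 and 1 called lower, Acot13. The ranges overlapped without transgenic replicate 3, where Acot4 gave -0.20 and Acot13 -0.22, and without wild-type replicate 3, where they gave -0.17 and -0.20. The difference between the families was not tested. Type I genes are close paralogues, and whether a probe set of one detects another was not tested.

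The type I genes form a cluster in the order Acot2, Acot1, Acot4, Acot3, Acot5 and Acot6. Acot5 and Acot6, type I genes outside the member list, are named here after their values were seen. Acot5 was lower, at 3.46 ± 0.14 in transgenic and 3.90 ± 0.22 in wild-type cells (SD, n = 3 each), both close to the bottom of the array range, with a difference of -0.44 (limma adjusted p = 0.0405) that passed in 2 of the 6 fits that leave out an array. Acot6 gave -0.12 at its brighter probe set and 0.034 at its dimmer one, and neither passed. Of the 10 nearest measured protein-coding genes, 5 on each side, 5 also fell and 0 rose by limma, against 9.05% of all genes lower (6 and 0 at an unadjusted p under 0.05). The 5 were Rbm25, Numb, Ptgr2, Zfp410 and Entpd5. With single arrays left out 1 to 3 of the flanking genes fell: 1 without transgenic replicate 3, 2 without transgenic replicate 1 and 3 without each of the others, and Entpd5 passed in all 6 fits. The flanking genes' median difference was -0.23, that of the cluster's 6 genes -0.45. Entpd5, an ER nucleotidase of glycoprotein folding, gave the lowest flanking difference, -0.56 (SE 0.053, limma adjusted p = 0.000388). Neighbours were chosen by position, after the cluster's values were known.

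Vnn1 lies next to Vnn3, the other vanin gene measured. Vnn3 read 8.19, 8.27 and 8.10 in transgenic cells, against 8.27, 8.40 and 8.33 in wild-type cells, and the groups overlapped. Its difference of -0.14 (SE 0.066) did not pass (limma adjusted p = 0.194). Around the vanin genes 2 of 10 flanking genes fell and 0 rose by limma, against 9.05% of all genes lower. At an unadjusted p under 0.05 limma gave 3 and 0, and the flanking genes' median difference was -0.096. The 2 that fell were Aldh8a1, an aldehyde dehydrogenase gene, at -0.27, and the ectonucleotidase gene Enpp3, at -0.39. The Enpp3 call was lost without transgenic replicate 3. The count was 3 without transgenic replicate 2 or wild-type replicate 1 or 2, by limma.

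**Figure D3:**
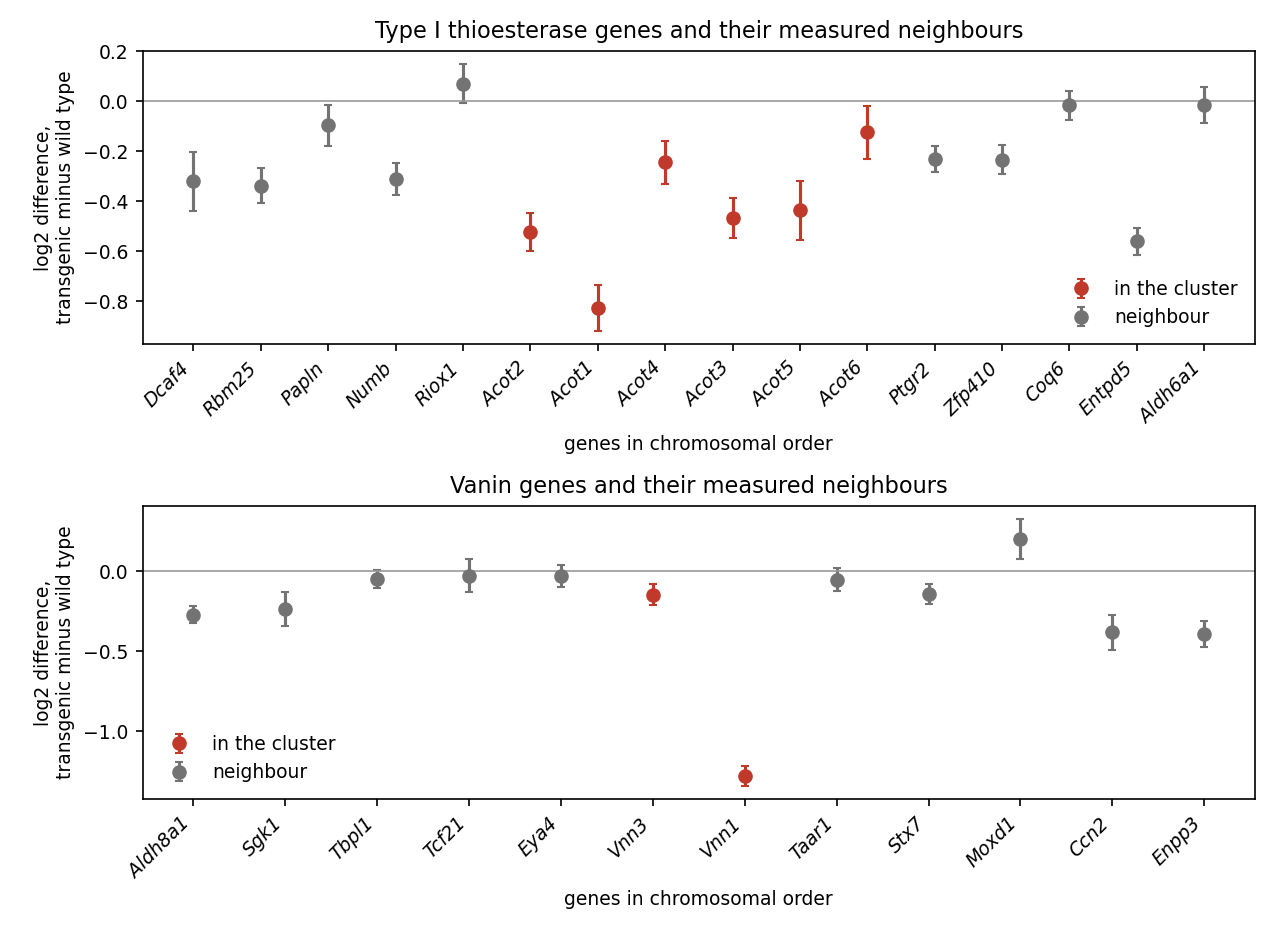
Log2 difference, transgenic minus wild type, with its standard error (vertical axis) for the clustered genes and 5 measured neighbours on each side, in chromosomal order (horizontal axis, not to distance). Acot1 at -0.83 is the lowest point of the upper panel and Vnn1 at -1.28 that of the lower panel.

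Related genes were read from 8 lists that exclude the members. They cover genes that make, bind or use acyl-CoA or coenzyme A, other PPARA targets, and receptors with their coregulators. The pooled counts that follow take in all of these kinds. Of 122 distinct genes measured, 39 fell and 5 rose by limma with Benjamini-Hochberg adjustment over all genes, where 9.05% of all genes fell and 6.83% rose. Where 0 members of a list rose, the number that rose in limma at an unadjusted p under 0.05 is given too. The lists share genes, and no test across a list was made.

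Among other thioester hydrolases 4 of 13 fell and 1 rose, with a list median of -0.12. The list includes Acot5 and Acot6 of the type I cluster, and Acot5 was 1 of the 4 that fell. With single arrays left out 1 to 3 were called lower and 0 higher, the lowest without transgenic replicate 1 or wild-type replicate 2 or 3. Fasn, whose last domain is the thioesterase that releases palmitate, read 10.08, 10.05 and 9.96 in transgenic cells, against 10.43, 10.45 and 10.32 in wild-type cells. The groups did not overlap, and Fasn fell by 0.38 (SE 0.063, limma adjusted p = 0.00577). Hibch, which hydrolyses a valine intermediate, fell by 0.24 and the mitochondrial depalmitoylase gene Abhd10 fell by 0.21, each passing in 1 of the 6 fits that leave out an array. Ppt2, a lysosomal thioesterase gene, rose by 0.24 (SE 0.057, limma adjusted p = 0.0269), a call lost whichever array was left out (0 of 6).

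Synthesis of coenzyme A begins with pantothenate, the product of vanin. In the list of its synthesis, transport and breakdown 4 of 13 genes fell and 0 rose (0 unadjusted), with a median of -0.13, and 2 fell without wild-type replicate 2. Pank1 and Pank3 encode pantothenate kinases, the rate-limiting step. Pank1 read 10.96, 10.97 and 10.88 in transgenic cells, against 11.15, 11.25 and 11.19 in wild-type cells, and Pank3 fell by 0.37 (SE 0.061, limma adjusted p = 0.00596). Pank1 fell by 0.26 (SE 0.058, limma adjusted p = 0.0205), with no overlap between genotypes, and passed in 2 of the 6 fits that leave out an array. Ppcs, the next enzyme, fell by 0.40 (SE 0.064), and Slc5a6, which imports pantothenate, fell by 0.45 (SE 0.090) at signal under the array median, a call lost without wild-type replicate 2.

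Acyl-CoA synthetases run the reaction opposite to thioesterases. Of 17 measured, 4 fell and 1 rose, with a median of -0.11, and 2 fell without transgenic replicate 1 or 3 or wild-type replicate 2 or 3. Acss2, which makes cytosolic acetyl-CoA from acetate, read 10.41, 10.38 and 10.45 in transgenic cells, against 11.25, 11.39 and 11.45 in wild-type cells. It fell by 0.95 (SE 0.067, limma adjusted p = 8.24e-05). Aacs, which activates acetoacetate, fell by 0.33, and the long-chain synthetase gene Acsl5 fell by 0.22 (limma adjusted p = 0.0435), passing in 1 of the 6 fits that leave out an array. The medium-chain gene Acsm2 rose by 0.68 (SE 0.11, limma adjusted p = 0.00476).

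Of 10 acyl-CoA and fatty acid binding genes 1 fell and 1 rose, with a median of -0.059. Pctp, the phosphatidylcholine transfer protein to which ACOT13 binds, read 8.24, 8.28 and 8.15 in transgenic cells, against 8.59, 8.61 and 8.64 in wild-type cells. It fell by 0.39 (SE 0.057, limma adjusted p = 0.00315), with no overlap. Fabp5, a fatty acid binding protein, rose by 0.92 (SE 0.068, limma adjusted p = 0.000102). Fabp4, at -0.16, and the Golgi acyl-CoA binding gene Acbd3, at -0.15, did not pass.

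In the oxidation pathways 8 of 23 mitochondrial genes fell and 0 rose (1 unadjusted), and 5 of 19 peroxisomal genes fell and 1 rose, with medians of -0.12 and -0.13. With single arrays left out 4 to 6 mitochondrial and 3 to 5 peroxisomal genes fell. The mitochondrial count was 4 without transgenic replicate 3 and 5 without transgenic replicate 1 or wild-type replicate 3, and the peroxisomal count was 3 without transgenic replicate 1 or 3 or wild-type replicate 2. Crat, carnitine acetyltransferase, fell by 0.37, the carnitine importer gene Slc22a5 fell by 0.35, and Hadh and Decr1, enzymes of mitochondrial oxidation, each fell by 0.29. In peroxisomes Pex11a, which acts in their division, fell by 0.68 (SE 0.058, limma adjusted p = 0.000231), the thiolase gene Acaa1b fell by 0.41 and the bifunctional enzyme gene Ehhadh fell by 0.40. Hacl1, the lyase of phytanic acid oxidation, rose by 0.31 (SE 0.062, limma adjusted p = 0.0137), a call lost without transgenic replicate 2.

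PPARA targets outside the family counted 14 fallen and 1 risen of 26, with a median of -0.26. The 4 with the smallest p were Angptl4, Cyp4a14, Cd36 and Pdk4, with differences of -1.92, -3.20, -2.51 and -1.69. Vnn1, at -1.28, lay closer to 0 than these 4 but further from 0 than every other measured target of the list. Of 13 receptors and coregulators 4 fell and 0 rose (0 unadjusted), with a median of -0.21. Ppara read 8.13, 7.99 and 8.01 in transgenic cells, against 8.71, 8.98 and 8.74 in wild-type cells, and fell by 0.77 (SE 0.084, limma adjusted p = 0.000748). Its partner Rxra fell by 0.38 (SE 0.065, limma adjusted p = 0.0061), the corepressor gene Nrip1 fell by 0.87 and Pparg fell by 2.01.

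**Figure D4:**
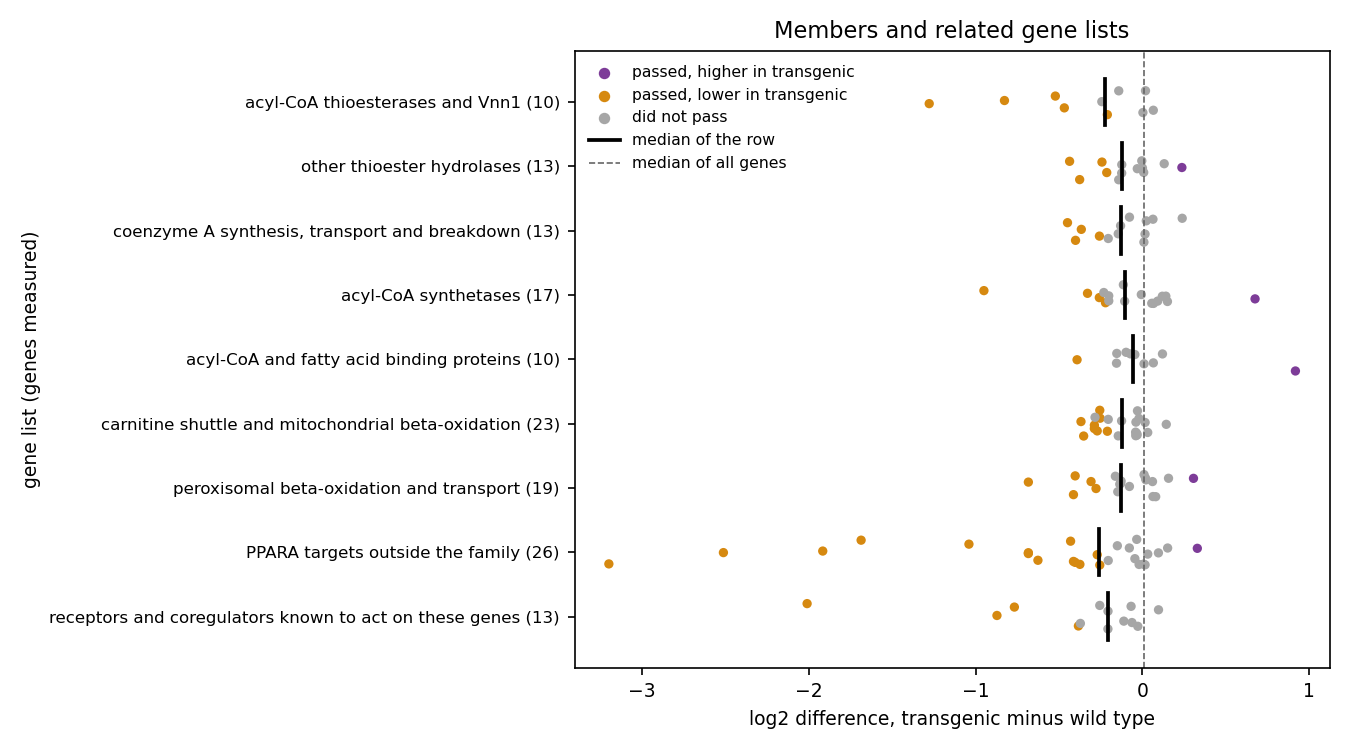
Log2 difference, transgenic minus wild type (horizontal axis), of each gene in the member set and in the 8 related lists (rows, with genes measured in brackets). Orange points passed as lower, purple as higher and grey did not pass, black bars are row medians and the dashed line is the median of all genes, and every row median lies below it.

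Markers of other cell types were read beside these values, with those that passed limma named after their values were seen. Of all genes 9.05% fell and 6.83% rose by limma. Of 13 macrophage markers 3 rose (Ptprc, Marco and C1qc) and 2 fell (Cd14 and Cd163), of 9 sinusoidal endothelium markers 2 rose (Clec4g and Kdr), of 9 stellate cell markers 0 changed (3 higher at an unadjusted p under 0.05, and 1 higher without wild-type replicate 3), and of 7 adipocyte markers 1 fell (Cidec, also a PPARA target). With single arrays left out Ptprc, Cd14, Clec4g and Cidec passed in 6 of 6 fits, Marco and Cd163 in 3, and C1qc and Kdr in 2. Signal summed over the list on the linear scale was 757 to 809 in transgenic and 619 to 686 in wild-type arrays for endothelium, and 882 to 918 in transgenic and 978 to 1054 in wild-type arrays for adipocytes. It overlapped between genotypes for macrophages, at 1684 to 1715 in transgenic and 1648 to 1782 in wild-type arrays, and for stellate cells, at 862 to 903 in transgenic and 816 to 881 in wild-type arrays. Markers under the median of all array values were 3 of 13 for macrophages, 3 of 9 for endothelium, 5 of 9 for stellate cells and 5 of 7 for adipocytes. Most of the adipocyte sum came from Fabp4, at 9.54 in transgenic and 9.69 in wild-type cells (log2). Fabp4 did not pass. The part of these cell types in the members' differences was not tested.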

How the data were processed

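Expression was measured in 6 samples of primary mouse hepatocytes on Affymetrix arrays, from 250 ng of total RNA each. The deposited unit is log2 expression for each probe set. The submitters' processing notes name RMA and Affymetrix Expression Console as the tools, with no version. RMA equalises the distribution of values between arrays, so a change shared by most genes is removed. Differences at low signal are also compressed in RMA values. Genes were named from the platform annotation, updated by gene ID through RefSeq genes of GRCm38.p6 (20351 of 20380 single-symbol probe sets matched), which also gave gene order. The 691 probe sets with several symbols, the 1555 with none and the 64 controls stayed out of the gene comparison.

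Each gene was tested by limma (version 3.58.1, R 4.3.3, and data.table package version 1.17.8) with lmFit and eBayes, two-sided, transgenic minus wild type, adjusted by Benjamini-Hochberg over 12393 genes at a threshold of 0.05. The 95% intervals and SEs come from that fit, and member SDs are over 3 arrays. The same model over all probe sets gave values of single probe sets. Promoter windows were aligned with Biopython 1.88. The procedure was checked on simulated data. The members and lists were chosen with earlier results of these data known. Genes named are all members, Mtdh, and the 4 with the smallest p of each list, and any other is given as chosen after its value was seen or by its position. Of 147 list genes 122 were measured, and the others were not analysed here.

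Alternatives covered the probe set that stands for a gene, a filter on dim genes, scaling, the variance prior, array weights, thresholds, a replicate block and leaving out each array. No batch label was used here.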

Additional observations from a re-analysis of the deposited data

How the results depend on the processing

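Vnn1 and Acot1 were lower and past the threshold under all 19 alternative settings, at -1.32 to -1.24 and -0.91 to -0.74. Acot2 passed in 17 of 18, at -0.58 to -0.48, and failed the minimum of 1.5-fold. Acot3 passed in 16 of 18, at -0.55 to -0.40, and failed at 1.5-fold and without moderation. Acot2 was not among the genes above the median level, nor Acot3 among probe sets other than _x_at and _s_at. The counts of members lower and higher were 5 and 0, against 2 and 0 at a minimum of 1.5-fold, and 4 to 6 lower when single arrays were left out. Genes changed numbered 1967, against 1271 with no moderation, 358 at 1.5-fold, 918 at an adjusted p under 0.01 and 1267 to 1700 with single arrays left out, the lowest without transgenic replicate 1. List genes lower numbered 39, against 12 at 1.5-fold and 24 at an adjusted p under 0.01. List genes higher numbered 5, against 8 with a variance trend, 2 at 1.5-fold, 3 at an adjusted p under 0.01 and 3 to 4 with single arrays left out, the lowest without transgenic replicate 2. The stricter thresholds lower counts by construction, and the other causes were not tested. Acot12 gave -0.042 as the mean of its probe sets, against 0.065, and Acot8 and Acot9 crossed 0 under 3 and 5 settings. Of 529 other values, mostly counts of single lists, 64 moved by more than the spread or 1.5 times and 0 reversed a call.

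Deviations of same-numbered arrays correlated at -0.010, -0.0097 and 0.10. Differently numbered arrays were not compared, so these values cannot decide whether the replicate numbers pair the samples. With the replicate block 1505 genes changed and 4 members were lower, Acot13 being lost. Signal near background limits Acot2 and Acot5. Acot4, at a mean of 5.72 over all arrays, lay close to the median of all array values, 5.63.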
